A study of Mus musculus with 24 samples.

Results

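Langerhans cells and the other dendritic cells of skin were followed here through 8 genes that mark or build them: Cd207, Epcam, Itgax, Batf3, Xcr1, Flt3, Cd209a and Siglech. They were taken by symbol from the 18193 genes measured. The genes were chosen on measured values: the low Cd207 signal of GVH-SSc isotype skin against syngeneic skin at day 28 put them together. That contrast, and the other day 28 contrasts that share its arrays, are therefore described without a test, and only the day 14 contrasts are tested. All 8 genes had a probe set, and Epcam had a second one.

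Skin from female RAG2-/- mice was profiled on 24 arrays, 4 in each of 6 groups. The recipients of every group lacked RAG2, which lymphocytes need to assemble antigen receptors, so host T and B cells are missing in controls and disease alike. Splenocytes from Balb/c donors were grafted in the syngeneic group, called control in the titles. Splenocytes from B10.D2 donors were grafted in the GVH-SSc groups, which model scleroderma-like graft-versus-host disease. The latter were treated with isotype antibody or with anti-IFNAR1, directed at a subunit of the receptor for type I interferon; the labels name no antibody for syngeneic mice. Shaved dorsal scapular skin was taken at day 14 or day 28. The labels do not say that the arrays of a group were separate animals, so p-values measure only the spread between these arrays. In bulk skin, fewer cells of a type and less RNA per cell cannot be told apart.

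Langerhans cells are the dendritic cells of the epidermis. They sit between keratinocytes, take up antigen and can carry it to the draining lymph node. Langerin, the protein of Cd207, is a C-type lectin that forms their Birbeck granules, and some type 1 conventional dendritic cells of the dermis carry it too. TGF-beta, IL-34 acting through the Csf1r receptor, and the factors Id2 and Runx3 are known to support them. The dermis also holds conventional dendritic cells of types 1 and 2, whereas plasmacytoid dendritic cells are known as sources of type I interferon.

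Values are log2(intensity + 16) of the deposited probe set signals, so 5 on this scale is an intensity of 16, near the median of an array. Array medians ran from 14.7 to 17.6, and arrays of a group had a mean correlation of 0.88 to 0.97 with each other. Some arrays stood apart. The log2 ratio of the 3′ to the 5′ Gapdh control probe sets, a sign of RNA quality, ranged from 0.62 to 6.36 and was above 4 on 5 arrays (syngeneic day 14 array 4, anti-IFNAR1 day 14 arrays 3 and 4, syngeneic day 28 array 3 and isotype day 28 array 1). Syngeneic day 14 arrays 1 and 2 had interferon gamma-inducible list means of 12.08 and 10.75, beside 8.23 and 8.55 on arrays 3 and 4. GVH-SSc isotype day 14 array 1 had a Cd207 level near that of isotype skin at day 28. The hair keratin mean ranged from 4.89 to 14.90 over the arrays. At day 28 it ran from 8.52 to 13.82 in syngeneic and from 5.03 to 9.48 in isotype skin. In anti-IFNAR1 skin of that day it ran from 4.95 to 14.90, the latter on array 2.

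Shown first are the upstream sequences of the 3 genes whose day 28 groups did not overlap, chosen by those values and not by motif. These are the 250 bases before the RefSeq gene start in GRCm38.p6, 5′ to 3′ on the gene's strand. Cd207 lies on the minus strand at chr6:83677858-83678107 and Itgax on the plus strand at chr7:128129300-128129549. Batf3 lies on the plus strand at chr1:191098164-191098413. Capitals mark an AP-1 match in Cd207 and Itgax and a STAT match in Batf3.
Cd207: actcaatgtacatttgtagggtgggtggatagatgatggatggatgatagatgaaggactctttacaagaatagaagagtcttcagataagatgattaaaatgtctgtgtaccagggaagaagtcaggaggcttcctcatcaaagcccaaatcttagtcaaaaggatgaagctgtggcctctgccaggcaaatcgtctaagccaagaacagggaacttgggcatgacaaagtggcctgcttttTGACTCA
Itgax: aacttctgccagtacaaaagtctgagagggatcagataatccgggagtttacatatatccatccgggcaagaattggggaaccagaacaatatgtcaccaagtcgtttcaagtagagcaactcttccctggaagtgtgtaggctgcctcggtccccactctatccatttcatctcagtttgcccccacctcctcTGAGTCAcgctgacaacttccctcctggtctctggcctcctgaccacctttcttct
Batf3: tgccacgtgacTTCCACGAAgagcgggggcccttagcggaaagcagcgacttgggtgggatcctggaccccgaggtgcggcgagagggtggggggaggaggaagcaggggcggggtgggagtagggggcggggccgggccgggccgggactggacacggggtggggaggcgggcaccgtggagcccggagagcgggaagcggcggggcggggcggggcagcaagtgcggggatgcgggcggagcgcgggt

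Both strands of these windows were searched for 5 motifs: RUNX (TGTGGT), PU.1 (GAGGAAGT), AP-1 (TGANTCA), STAT (TTCNNNGAA) and the interferon response element. The AP-1 match of Cd207 is TGACTCA at -7 to -1 from the start, and that of Itgax is TGAGTCA at -56 to -50. AP-1 letters were found in 6.75% of 32851 promoter windows of the same length. The Batf3 match, TTCCACGAA at -239 to -231, is of a kind found in 7.02% of windows. In the Siglech window a STAT match and a RUNX match (RUNX in 14% of windows) overlapped by 1 base. None of the 8 windows held the interferon response letters (2.98% of windows) or the PU.1 letters (2.44%). These are matches of letters and not measured binding.

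Cd207 was close to the array background in all 4 GVH-SSc isotype arrays at day 28 and well above it in syngeneic and anti-IFNAR1 skin of the same day. Its probe set (1425243_at) read 4.89, 5.01, 4.46 and 4.44 in isotype skin. In syngeneic skin it read 7.70, 8.18, 8.21 and 8.24, and in anti-IFNAR1 skin 8.21, 6.73, 8.68 and 9.03. The isotype arrays thus lay below every array of the other day 28 groups, and the syngeneic and anti-IFNAR1 arrays overlapped. In linear units, the mean intensity was 10.3 ± 5.30 (SD, n = 4) in isotype skin, 258 ± 44.1 in syngeneic skin and 318 ± 178 in anti-IFNAR1 skin. That made syngeneic skin 25.0 times and anti-IFNAR1 skin 30.7 times as bright as isotype skin, ratios that rest on isotype intensities of 5.65 to 16.13, where background has a large share.

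On the log2 scale the isotype mean was lower than the syngeneic mean by 3.39 (-3.39 ± 0.65 SE), and 42 of the 18193 genes had a larger negative difference. The anti-IFNAR1 mean was 3.47 ± 0.65 above the isotype mean, with 12 genes further above. Anti-IFNAR1 and syngeneic skin differed by 0.08 ± 0.65. The isotype arrays enter both of the larger differences, so these are not independent of each other. Over every alternative tried, the isotype minus syngeneic difference ran from -4.62 to -3.30. The more negative end came from an offset of 1, which counts intensities below 16 more fully.

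At day 14 Cd207 was not called in any comparison. Syngeneic arrays read 8.15, 8.85, 8.58 and 6.83, isotype arrays 5.20, 8.62, 8.10 and 8.91, and anti-IFNAR1 arrays 8.59, 8.76, 7.55 and 7.71. The groups overlapped, and 1 isotype array, at 5.20, lay below all other arrays of that day. The isotype minus syngeneic difference was -0.40 ± 0.65 (limma adjusted p = 0.77; 95% interval -1.76 to 0.96). Anti-IFNAR1 minus isotype was 0.44 ± 0.65 (limma adjusted p = 0.84) and anti-IFNAR1 minus syngeneic 0.05 ± 0.65 (limma adjusted p = 1). Without that isotype array the first of these was 0.44 and the second -0.39, so the sign at day 14 rests on it. Ordered by mean, the groups were anti-IFNAR1 day 28 (8.16 ± 1.01 SD), anti-IFNAR1 day 14 (8.15 ± 0.61), syngeneic day 14 (8.11 ± 0.90), syngeneic day 28 (8.08 ± 0.25), isotype day 14 (7.71 ± 1.70) and isotype day 28 (4.70 ± 0.29). The first 5 do not differ beyond their spread.

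**Figure D1:**
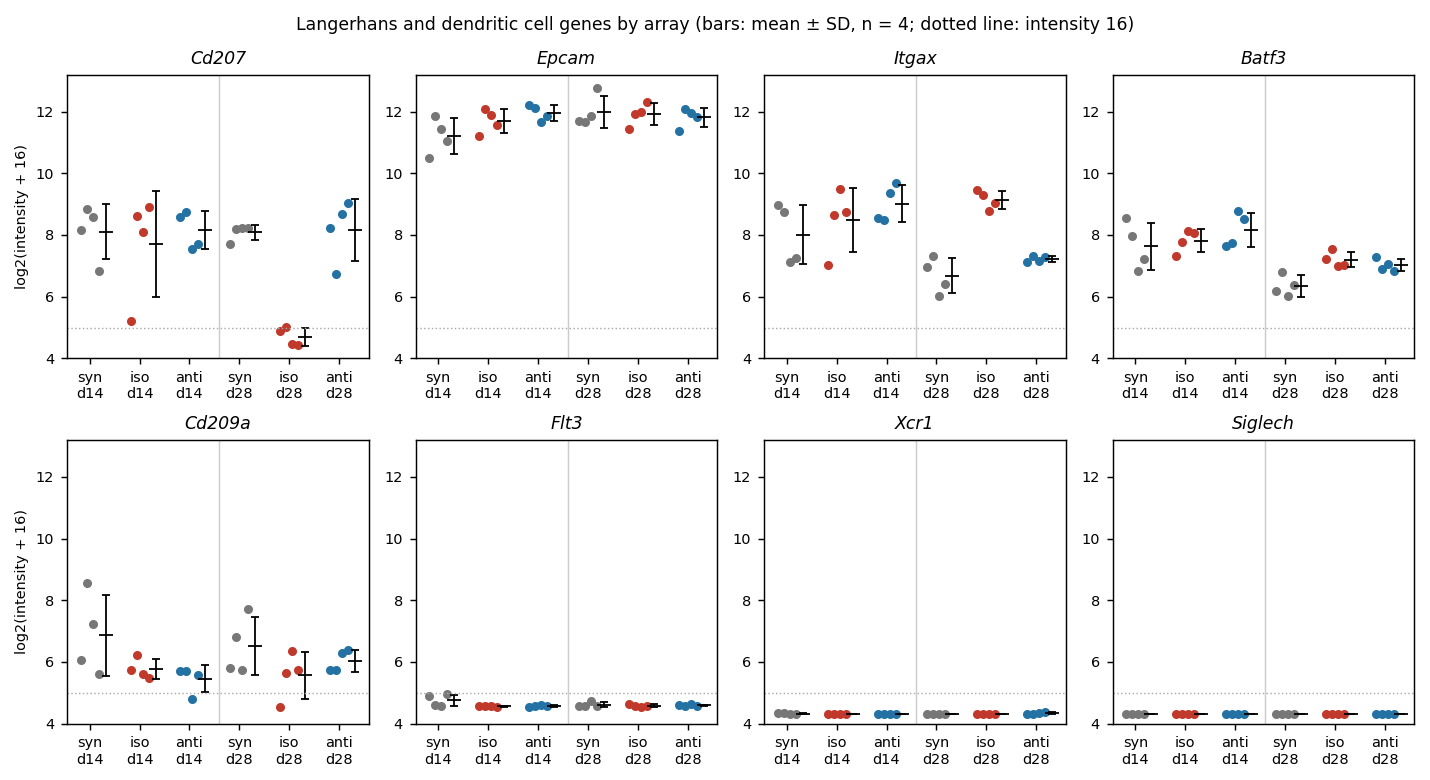
Level of each gene on every array, as log2(intensity + 16), by group (syn, syngeneic; iso, GVH-SSc isotype; anti, GVH-SSc anti-IFNAR1) and day (d14, d28). Points are arrays, bars are the mean ± SD of 4 arrays, and the dotted line marks an intensity of 16. The 4 isotype day 28 arrays of Cd207 sit between 4.44 and 5.01, below all other arrays of that gene.

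Epcam encodes an adhesion molecule carried by Langerhans cells and also by epithelial cells of the skin, so it does not mark Langerhans cells alone. Its brighter probe set (1416579_a_at) ranged from 11.45 to 12.31 in isotype skin at day 28. In syngeneic skin of that day it read 11.71, 11.67, 11.85 and 12.77, and in anti-IFNAR1 skin 11.37, 12.08, 11.97 and 11.83. The 3 groups overlapped, and isotype minus syngeneic was -0.08 ± 0.29. At day 14 syngeneic arrays ranged from 10.50 to 11.84, isotype arrays from 11.20 to 12.09 and anti-IFNAR1 arrays from 11.65 to 12.21. Isotype minus syngeneic was 0.49 ± 0.29 (limma adjusted p = 0.30) and anti-IFNAR1 minus syngeneic 0.74 ± 0.29 (limma adjusted p = 0.22). The second probe set (1447899_x_at) stayed between 7.61 and 8.39 over all 24 arrays. Its day 14 means were 7.96 in syngeneic, 7.71 in isotype and 7.76 in anti-IFNAR1 skin. Syngeneic skin was thus the highest there, whereas it was the lowest for the brighter probe set.

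Itgax, which encodes CD11c, an integrin chain of dendritic cells that macrophages can carry as well, lay on the opposite side at day 28. Isotype arrays (1419128_at) read 9.45, 9.28, 8.77 and 9.03. Syngeneic arrays read 6.96, 7.31, 6.03 and 6.41, and anti-IFNAR1 arrays 7.12, 7.31, 7.14 and 7.29. The isotype arrays all lay above both other groups. Isotype skin was higher than syngeneic skin by 2.46 ± 0.47, or 6.02-fold in mean intensity. It was above anti-IFNAR1 skin by 4.17-fold in mean intensity, and the log2 difference of anti-IFNAR1 minus isotype was -1.92 ± 0.47.

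At day 14 Itgax was high in some arrays of every group. Syngeneic arrays read 8.96, 8.74, 7.11 and 7.25, isotype arrays 7.02, 8.66, 9.49 and 8.76, and anti-IFNAR1 arrays 8.56, 8.47, 9.35 and 9.67. Syngeneic arrays 1 and 2, the pair with the high interferon gamma-inducible levels, were the higher ones of their group. No difference passed the test: isotype minus syngeneic was 0.47 ± 0.47 (limma adjusted p = 0.60) and anti-IFNAR1 minus syngeneic 1.0 ± 0.47 (limma adjusted p = 0.34). Without that syngeneic pair the first was 1.30, and the part these arrays play in the result was not tested beyond this.

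Batf3 encodes a transcription factor of the AP-1 family that type 1 conventional dendritic cells need for their development. At day 28 (1453076_at) it read 7.20, 7.53, 7.01 and 7.02 in isotype skin and 7.30, 6.89, 7.05 and 6.85 in anti-IFNAR1 skin. In syngeneic skin it read 6.17, 6.81, 6.02 and 6.39, below every array of both GVH-SSc groups. Isotype minus syngeneic was 0.85 ± 0.32 and anti-IFNAR1 minus syngeneic 0.68 ± 0.32, while anti-IFNAR1 minus isotype was -0.17 ± 0.32 with overlapping arrays. With the hair keratin mean as a covariate the first of these was 0.53 ± 0.36. The position of the anti-IFNAR1 group thus differed between the 2 genes: it overlapped syngeneic skin for Itgax and isotype skin for Batf3. At day 14 syngeneic arrays ran from 6.82 to 8.54, isotype arrays from 7.31 to 8.13 and anti-IFNAR1 arrays from 7.65 to 8.77. Isotype minus syngeneic was then 0.18 ± 0.32 (limma adjusted p = 0.79) and anti-IFNAR1 minus isotype 0.36 ± 0.32 (limma adjusted p = 0.62), and the latter turned to -0.11 without the arrays of high Gapdh ratio.

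Cd209a encodes a C-type lectin related to DC-SIGN that is found on dermal type 2 and monocyte-derived dendritic cells. Its probe set (1426172_a_at) was brightest in syngeneic skin, with 6.07, 8.55, 7.23 and 5.62 at day 14 and 5.81, 6.82, 5.74 and 7.73 at day 28. Isotype arrays read 5.74, 6.24, 5.60 and 5.49 at day 14 and 4.54, 5.66, 6.37 and 5.73 at day 28. Anti-IFNAR1 arrays ran from 4.81 to 5.72 and from 5.73 to 6.38. Groups overlapped at both days. The syngeneic arrays at 6.07 and 5.62 on day 14, and at 5.81 and 5.74 on day 28, lay within the isotype range. Isotype minus syngeneic was -1.10 ± 0.54 at day 14 (limma adjusted p = 0.20) and -0.95 ± 0.54 at day 28. Without syngeneic array 2 the day 14 difference was -0.54. At day 28 it was -0.55 without syngeneic array 4 and -0.61 without isotype array 1. With the Gapdh ratio as a covariate the day 14 difference was -1.71 (limma adjusted p = 0.0054), and over all alternatives its limma adjusted p ran from 0.0054 to 0.50.

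Xcr1, the chemokine receptor of type 1 conventional dendritic cells, Flt3, the receptor for a growth factor that conventional dendritic cells depend on, and Siglech, a lectin of plasmacytoid dendritic cells, gave no usable signal. The highest intensity of any of the 3 on any array was 14.89, below 16. Xcr1 (1422294_at) stayed between 4.32 and 4.39 and Siglech (1436131_at) between 4.31 and 4.32. Flt3 (1419538_at) ran from 4.55 to 4.95. These probe sets could not show a fall, and their small differences lie within that range.

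Of the 8 genes, 1 was called in isotype against syngeneic skin at day 14, while 13.6% of all genes were called. It was Flt3, lower by 0.19 (-0.19 ± 0.06, limma adjusted p = 0.048) within the background range just described. The call was lost without isotype array 1, 2, 3 or 4 or syngeneic array 1 or 4, and without the arrays of high Gapdh ratio. No member was called in anti-IFNAR1 against isotype (limma, 0.813% of all genes). An unadjusted limma p under 0.05 was reached there by 0 members and by 3075 of the 18193 genes. None of the 8 was called in anti-IFNAR1 against syngeneic (limma, 1.12% of all genes). There 4 members had an unadjusted limma p under 0.05, Epcam and Itgax higher and Flt3 and Cd209a lower. Such a p was reached by 2610 of the 18193 genes in that comparison. At day 14 the groups overlapped for all 8 genes in all 3 comparisons, where 13.3%, 12.1% and 7.49% of all genes did not overlap.

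At day 28 the arrays did not overlap for 3 of the 8 genes in isotype against syngeneic skin, beside 20.2% of all genes. By direction, 2 of them were higher (8.09% of all genes) and 1 lower (12.2%). In anti-IFNAR1 against isotype skin 2 did not overlap, beside 17.2% of all genes: Cd207 higher (10.3%) and Itgax lower (6.85%). In anti-IFNAR1 against syngeneic skin it was 1, Batf3, beside 1.71% of all genes. Isotype skin lay below both other groups for 1405 genes (7.72%), Cd207 among them, and above both for 1005 genes (5.52%), Itgax among them. Nothing is read from these shares, since the day 28 contrast chose the members. The median difference of the 8 genes in isotype against syngeneic skin was -0.01 at day 14 and at day 28, and over all genes it was -0.01 and 0.00, so the opposite signs of Cd207 and Itgax do not appear in a median.

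**Figure D2:**
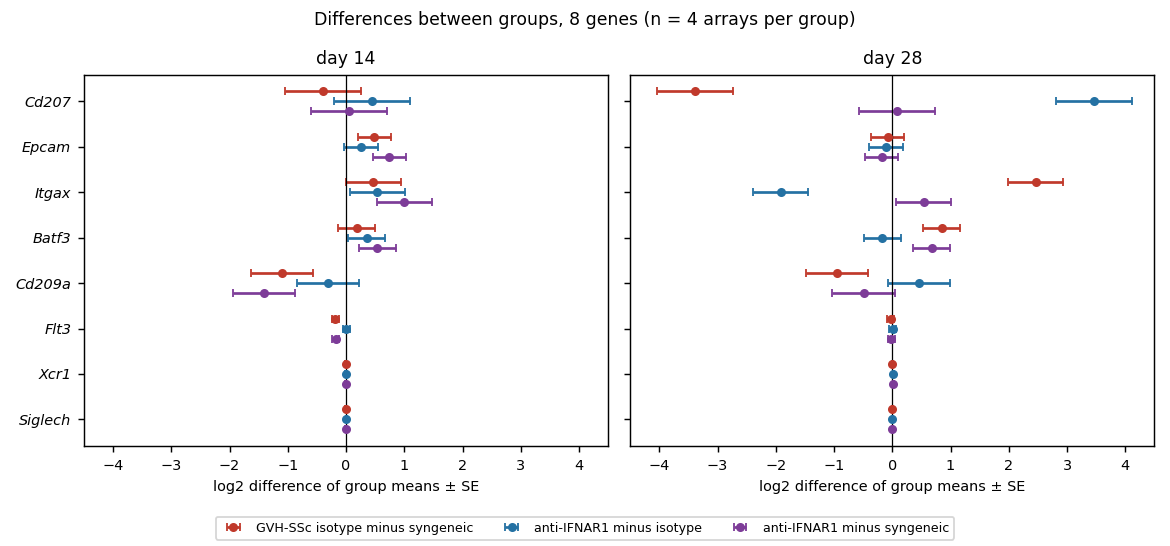
Differences of group means ± SE on the log2(intensity + 16) scale for the 8 genes, at day 14 (left) and day 28 (right), with 4 arrays per group. At day 28 Cd207 stands at -3.39 for isotype minus syngeneic and Itgax at 2.46, while Epcam stands at -0.08. The bars of Flt3, Xcr1 and Siglech are short because these genes lay in the background on every array.

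Set against each other array by array, Cd207 was lower in isotype than in syngeneic skin at day 28 by more than any other member. The genes were put together for this low Cd207, so the day 28 values here restate that choice and are description only. The difference of Cd207 minus Epcam shifted by -3.31 between the groups. Against Itgax the shift was -5.84, against Batf3 -4.23 and against Cd209a -2.43. The arrays of the 2 groups did not overlap in any of these 4 differences. At day 14 the shifts were -0.88, -0.86, -0.58 and 0.70, all with overlapping arrays.

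Across the 24 arrays, Itgax and Batf3 varied together, with r = 0.79, and with r = 0.83 once each group's mean was removed. Cd207 followed no other member closely: r was 0.02 with Epcam, -0.26 with Itgax, 0.13 with Batf3 and 0.37 with Cd209a. These correlations describe arrays that share groups and RNA quality and carry no p.

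None of the 5 genes most like Cd207 over the 24 arrays is in the dendritic cell lists described further on. Among 10566 genes with a mean of at least 6, Abhd3 (a lipase-family enzyme) and Lpar3 (a receptor for lysophosphatidic acid) had r = 0.94. Far2 (a fatty acyl-CoA reductase), Elovl6 (a fatty acid elongase) and Sec14l4 had r = 0.89. These genes were picked on the same 24 arrays, so their low isotype levels at day 28 are favoured by the choice. At day 28 Abhd3 had a mean of 5.73 ± 0.39 (SD) in isotype, 8.14 ± 0.39 in syngeneic and 8.10 ± 0.47 in anti-IFNAR1 skin. Elovl6 had 9.21 ± 0.44, 11.75 ± 0.12 and 12.01 ± 0.28 in the same order. Far2 had 5.47 ± 0.71, 8.46 ± 0.28 and 8.31 ± 0.20. With group means removed, the leading genes were Dmkn (dermokine, a protein secreted by the epidermis) with r = 0.90 and Lpar3, Fcgbp, BC064078 and Dhrs7 with r = 0.88. At day 28 the isotype and syngeneic means were 14.99 and 14.93 for Dmkn, 11.63 and 11.79 for Fcgbp and 9.75 and 9.71 for BC064078. For Dhrs7 they were 9.22 and 9.97, and for Lpar3 4.93 and 7.69. On isotype day 14 array 1 Fcgbp read 7.88, beside 12.16 to 12.49 on the other isotype arrays of that day. Dmkn read 14.06 there, beside 14.72 to 14.88. How far these r rest on that array was not tested.

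**Figure D3:**
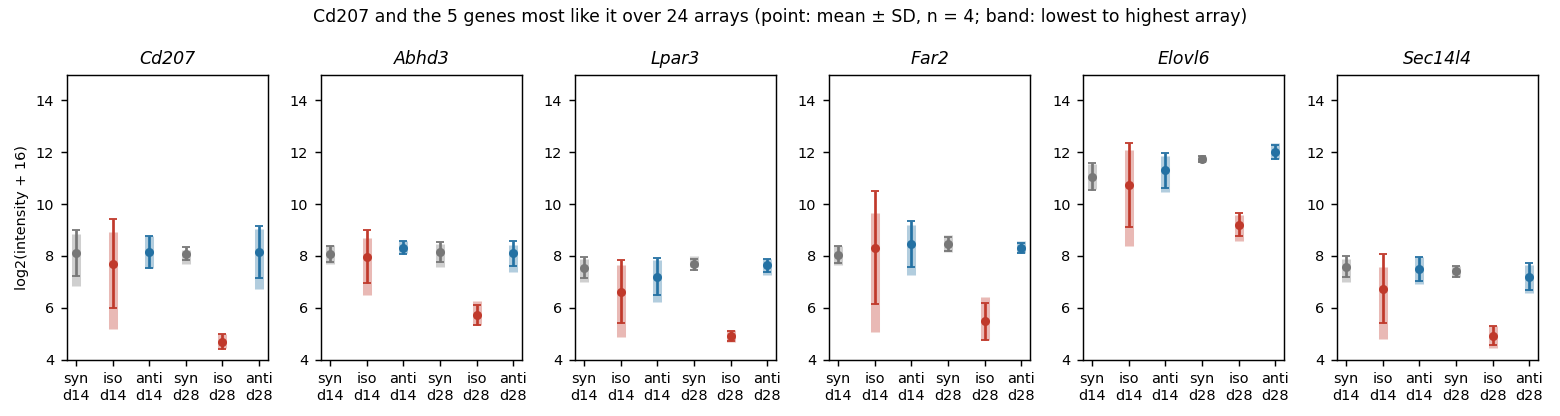
Cd207 and the 5 genes with the highest Pearson r with it over 24 arrays, as log2(intensity + 16) by group and day. Points are means ± SD of 4 arrays and bands run from the lowest to the highest array. In each of the 6 panels the isotype day 28 mean is the lowest of the 6 groups, and the isotype day 14 band is wide. The 5 genes were picked on these same arrays, so both features are favoured by the choice.

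The wide isotype day 14 band of these genes came from array 1, the same array that had the low Cd207. On it Far2 read 5.06, beside 9.09 to 9.68 on the other 3 isotype arrays. Lpar3 read 4.87, beside 6.92 to 7.67, and Sec14l4 read 4.80, beside 7.03 to 7.58. Array 1 was among the arrays on which these genes were picked for likeness to Cd207, so the choice favoured low values there. The Gapdh log2 ratio of that array was 2.16, beside 0.62 to 1.31 on the other 3, and its part in these levels was not tested. The set of genes that lay below both other groups at day 28 without overlap and by more than 2 each way held 95 genes, 0.522% of those measured, with Cd207 the only member among them. That set was chosen on day 28 arrays alone. Isotype day 14 array 1 was the lowest of its 4 arrays for 65 of the 95 genes (68.4%), beside 23.3% of all genes. Array 4 was the lowest for 0 of them, beside 23.3% of all genes.

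For Itgax the most similar genes were Irf5 (r = 0.89), a transcription factor of interferon and inflammatory responses, then Cd52, Samhd1 and Myo1g (r = 0.88) and Fgr (r = 0.87), a kinase of myeloid cells. For Batf3 they were H2-Aa, a chain of MHC class II (r = 0.91), Rassf4 (r = 0.90), C2 and Cd300lb (r = 0.89) and Dok1 (r = 0.88). Epcam was followed less closely, by Apoc1 and Cab39 (r = 0.78), Pop5 (r = 0.77) and Tmem19 and Mbnl2 (r = 0.76). Cd209a was followed by Tarsl2 (r = 0.84), Dag1 and Thap12 (r = 0.79) and Zfp521 and Slc38a4 (r = 0.78).

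The other genes known to support or mark Langerhans cells took different directions. Of 12 measured, 3 rose and 1 fell in isotype against syngeneic skin at day 14, where 5.29% of all genes rose and 8.3% fell. Tgfb1, the cytokine that Langerhans cells need, rose by 1.11 ± 0.32 (limma adjusted p = 0.028), and Spi1, the gene of PU.1, rose by 1.10 ± 0.29 (limma adjusted p = 0.018). Id2 rose by 0.58 ± 0.17 (limma adjusted p = 0.028). Cdh1, the E-cadherin that anchors these cells to keratinocytes, fell by 0.43 (-0.43 ± 0.13, limma adjusted p = 0.036). No gene of the list was called in anti-IFNAR1 against isotype at day 14 (limma; 2 at an unadjusted p under 0.05). The median difference of the list in isotype against syngeneic skin was 0.42.

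At day 28, 7 of these 12 genes were higher in isotype than in syngeneic skin without overlap and 0 lower. Of all genes, 8.09% were higher and 12.2% lower in this way. Tgfb1 was higher by 1.34 ± 0.32, Spi1 by 1.30 ± 0.29, Runx3 by 1.28 ± 0.35 and Cd24a, a surface glycoprotein that keratinocytes carry too, by 1.03 ± 0.26. Il34, the cytokine of the Csf1r receptor, and Ahr, a receptor for aromatic compounds, took the direction of Cd207, with overlapping arrays. Isotype minus syngeneic was -1.46 ± 0.61 for Il34 and -0.97 ± 0.45 for Ahr, and anti-IFNAR1 minus isotype was 1.08 ± 0.61 and 0.75 ± 0.45. Their r with Cd207 over the 24 arrays was 0.54 and 0.66. The 7 higher genes were lower in anti-IFNAR1 than in isotype skin without overlap (6.85% of all genes were), in a comparison that shares the isotype arrays. The list median was 0.67 for isotype minus syngeneic, beside 0.00 over all genes. Most genes of this list are also expressed by other cells of skin, and macrophage and T cell markers were higher in isotype skin too, as given further on.

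At day 14, 0 of 8 measured type 1 conventional dendritic cell genes were called in isotype against syngeneic skin (limma), beside 13.6% of all genes. An unadjusted limma p under 0.05 was reached by 5 of them (2 higher and 3 lower) and by 4942 of the 18193 genes. Clec9a was listed but not measured, and Xcr1 gave no usable signal. The count of calls is therefore no measure of type 1 conventional dendritic cells themselves. At day 28 Irf8, a transcription factor these cells share with macrophages, was higher in isotype skin by 1.84 ± 0.50. Naaa, a lysosomal amidase, was higher by 1.28 ± 0.47 and Tlr3 by 0.48 ± 0.24 (0.30 without syngeneic array 4). Cadm1, an adhesion molecule, was lower by 0.56 (-0.56 ± 0.14). At day 14 Itgae had a mean of 7.13 ± 0.46 (SD) in isotype, 8.18 ± 0.62 in syngeneic and 8.58 ± 0.31 in anti-IFNAR1 skin. Its isotype arrays overlapped the syngeneic arrays and lay below all anti-IFNAR1 arrays. At day 28 anti-IFNAR1 minus syngeneic was 1.25 for Itgae, without overlap.

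Of 8 type 2 conventional dendritic cell genes, 2 rose in isotype skin at day 14, beside 5.29% of all genes. Itgam, the CD11b chain that macrophages and neutrophils also carry, rose by 1.81 ± 0.42 (limma adjusted p = 0.0090), and Sirpa rose by 0.91 ± 0.29 (limma adjusted p = 0.043). Itgam was the 1 gene of the list that fell in anti-IFNAR1 against isotype skin at day 14, by 1.90 (-1.90 ± 0.42, limma adjusted p = 0.039; 0.654% of all genes fell). At day 28 Itgam was higher in isotype than in syngeneic skin by 1.59 ± 0.42. Cd1d1, an antigen-presenting molecule for lipids, took the direction of Cd207: isotype minus syngeneic was -1.95 ± 0.30 and anti-IFNAR1 minus isotype 2.31 ± 0.30, both without overlap. Its r with Cd207 over the 24 arrays was 0.82, the highest among the listed genes.

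Genes shared by conventional dendritic cells included the MHC class II pathway. At day 14 Csf2rb, a receptor chain for GM-CSF, rose by 2.07 ± 0.48 (limma adjusted p = 0.0085), and Zbtb46, a transcription factor of conventional dendritic cells, fell by 0.67 (-0.67 ± 0.22, limma adjusted p = 0.048). These were the 2 calls among 8 measured genes, where 13.6% of all genes were called. At day 28, 5 of the 8 were higher in isotype than in syngeneic skin without overlap, beside 8.09% of all genes. Among them, Csf2rb was higher by 1.72 ± 0.48, H2-Ab1 by 1.37 ± 0.26, Cd74 by 0.97 ± 0.25 and Ciita, the class II transactivator, by 0.75 ± 0.29. Of these, Ciita was the 1 gene that was lower in anti-IFNAR1 than in isotype skin without overlap.

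Of 10 plasmacytoid dendritic cell genes, 4 rose and 1 fell in isotype against syngeneic skin at day 14, beside 5.29% and 8.3% of all genes. Bst2, which interferons induce in many cell types, rose by 1.93 ± 0.43 (limma adjusted p = 0.0071), and Lair1, an inhibitory collagen receptor of many leukocytes, rose by 1.50 ± 0.29 (limma adjusted p = 0.0031). Ly6d rose by 0.82 ± 0.22 (limma adjusted p = 0.019) and Tlr7 by 0.70 ± 0.17 (limma adjusted p = 0.011). Over the 24 arrays Ly6d had r = 0.54 with Epcam, the highest among the listed genes. Which cells of the skin carried Ly6d was not tested. Tcf4, the transcription factor that specifies plasmacytoid dendritic cells and is present in many other cells, fell by 0.87 (-0.87 ± 0.22, limma adjusted p = 0.014). Tlr7 was the 1 gene of the list that fell in anti-IFNAR1 against isotype skin at day 14, by 0.90 (-0.90 ± 0.17, limma adjusted p = 0.017). The defining gene Siglech was in the background throughout.

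Among 13 measured genes of activated and migratory dendritic cells, 2 rose in isotype skin at day 14, beside 5.29% of all genes. Cd274, the gene of the checkpoint ligand PD-L1, rose by 2.42 ± 0.69 (limma adjusted p = 0.025), and Cd86, a costimulatory ligand, rose by 0.89 ± 0.26 (limma adjusted p = 0.030). At day 28, 5 were higher in isotype than in syngeneic skin without overlap, beside 8.09% of all genes. Cd274 was higher by 3.14 ± 0.69, Cd40 by 2.11 ± 0.44, and the CCR4 ligands Ccl22 by 1.77 ± 0.54 and Ccl17 by 1.67 ± 0.59. Ccl17 lay in the background in syngeneic skin, at 4.30 to 4.48, and ran from 4.56 to 8.27 in isotype skin; without isotype array 4 its difference was 0.92. Ccr7, the receptor that leads dendritic cells to lymph nodes, stayed between 4.45 and 4.52 in the 3 day 28 groups, in the background, and so could not show a lower level. Cd274, Cd40, Ccl22 and Ccl17 were lower in anti-IFNAR1 than in isotype skin without overlap.

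**Figure D4:**
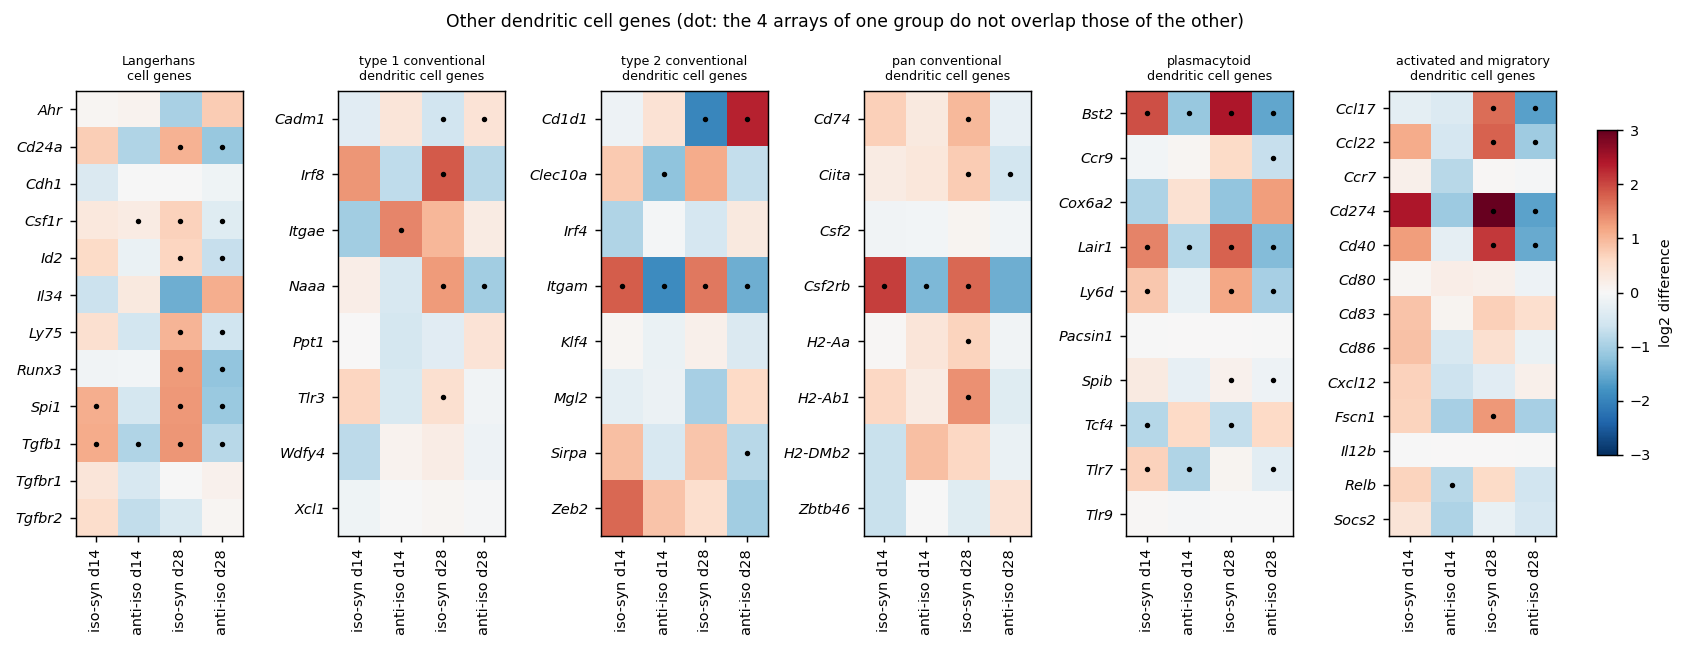
Log2 differences of the other dendritic cell genes, by list, for isotype minus syngeneic (iso-syn) and anti-IFNAR1 minus isotype (anti-iso) at day 14 (d14) and day 28 (d28). Red is higher and blue lower, the scale ends at 3 either way, and a dot marks genes whose 4 arrays in one group do not overlap those in the other. At day 28 Cd1d1 is blue in the first comparison and red in the second, while Cd274 and Cd40 are the reverse.

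The calls for these lists differed between fits. Of their 15 calls in isotype against syngeneic skin at day 14, 5 held with each array left out in turn: Itgam, Csf2rb, Bst2, Lair1 and Tlr7. With the arrays of high Gapdh ratio left out, the Langerhans list had 2 higher and 0 lower calls at day 14, the activated list 0, the type 2 list 1 higher and 1 lower, and the plasmacytoid list 4 higher and 1 lower, while the falls of Itgam and Tlr7 in anti-IFNAR1 against isotype skin were no longer called. In a fit of only the 8 arrays compared, each of the 6 dendritic cell lists had 0 calls, which leaves the spread to be estimated from fewer arrays.

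Other cells changed beside these genes. Of 12 macrophage and monocyte markers, 11 rose in isotype against syngeneic skin at day 14, beside 5.29% of all genes. Their median difference was 1.92, and 1 marker rose in the fit of only the 8 arrays. Their summed intensity at day 28 ran from 38345 to 84780 on isotype arrays, from 10035 to 29056 on syngeneic arrays and from 24543 to 42333 on anti-IFNAR1 arrays. All 7 T cell markers rose in isotype skin at day 14 (5 in the fit of only the 8 arrays) and 4 fell in anti-IFNAR1 against isotype skin (2 without the arrays of high Gapdh ratio and 0 in the fit of only the 8 arrays). Their summed intensity at day 28 was 1131 to 1662, beside 76.0 to 193 in syngeneic and 255 to 429 in anti-IFNAR1 skin. All 9 interferon gamma-inducible genes, a list added after the arrays had been examined, rose at day 14. At day 28 these lists lay in the direction of Itgax, and their part in the Itgax, Batf3 and list results was not tested. Of 4 B cell markers, 3 stayed under an intensity of 16 on every array, and no mast cell marker was called (limma; 0 of 7 at an unadjusted p under 0.05).

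Among structural cells, keratinocyte markers differed in direction. The list's median isotype minus syngeneic difference was -0.47 at day 14 and 0.06 at day 28. At day 28, 2 of 6 markers were higher in isotype skin without overlap and 0 lower, beside 8.09% and 12.2% of all genes. These were Krt14 and Krt1, the latter by 0.96. Anti-IFNAR1 minus isotype was -0.80 for Krt1, also without overlap. For Dsg1a, a desmosomal cadherin, isotype minus syngeneic was -0.77 ± 0.74. For Trp63, a transcription factor of basal cells, it was -0.40 ± 0.31, both with overlapping arrays. The summed intensity of the list, to which the brightest keratins add most, was higher: its value at day 28 was 155032 to 190858 in isotype skin, above the 124259 to 137457 of syngeneic and the 121272 to 137756 of anti-IFNAR1 skin. Krt14, the keratin of basal keratinocytes, rose by 0.58 ± 0.18 at day 14 (limma adjusted p = 0.040) and was higher by 1.09 ± 0.18 at day 28. Sebaceous gland markers lay in the direction of Cd207 at day 28. Their list mean at day 28 was 9.09 ± 0.18 (SD) in isotype, 10.23 ± 0.19 in syngeneic and 10.50 ± 0.13 in anti-IFNAR1 skin, with summed intensities of 8722 to 19377, 30191 to 45820 and 33986 to 55264. Scd1, a fatty acid desaturase of sebaceous glands and fat, was lower in isotype than in syngeneic skin by 2.50 (-2.50 ± 0.41) and had r = 0.79 with Cd207 over the 24 arrays. At day 14 none of the 5 sebaceous markers was called (limma; 0 at an unadjusted p under 0.05 in isotype against syngeneic skin). Of 14 hair follicle and epithelial junction markers, Esrp1 fell at day 14 by 0.96 (-0.96 ± 0.22, limma adjusted p = 0.0084), and Lhx2 and Sox9 were lower at day 28 by 2.56 (-2.56 ± 0.61) and 0.88 (-0.88 ± 0.32). The Esrp1 difference was -0.63 without isotype array 1 of day 14, and that of Sox9 was -0.53 without isotype array 1 of day 28. The 95 genes low with Cd207 at day 28 also held genes of fat and muscle, named here after their values were seen. Isotype minus syngeneic was -2.03 for Adipoq and -2.92 for Lep, both adipokines, and -2.23 for Ampd1, an AMP deaminase of skeletal muscle. With the hair keratin mean as a covariate, the isotype minus syngeneic difference of Cd207 at day 28 was -3.69 ± 0.79. Beyond this, the part of gland, follicle, fat and muscle content in the Cd207 result was not tested.

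**Figure D5:**
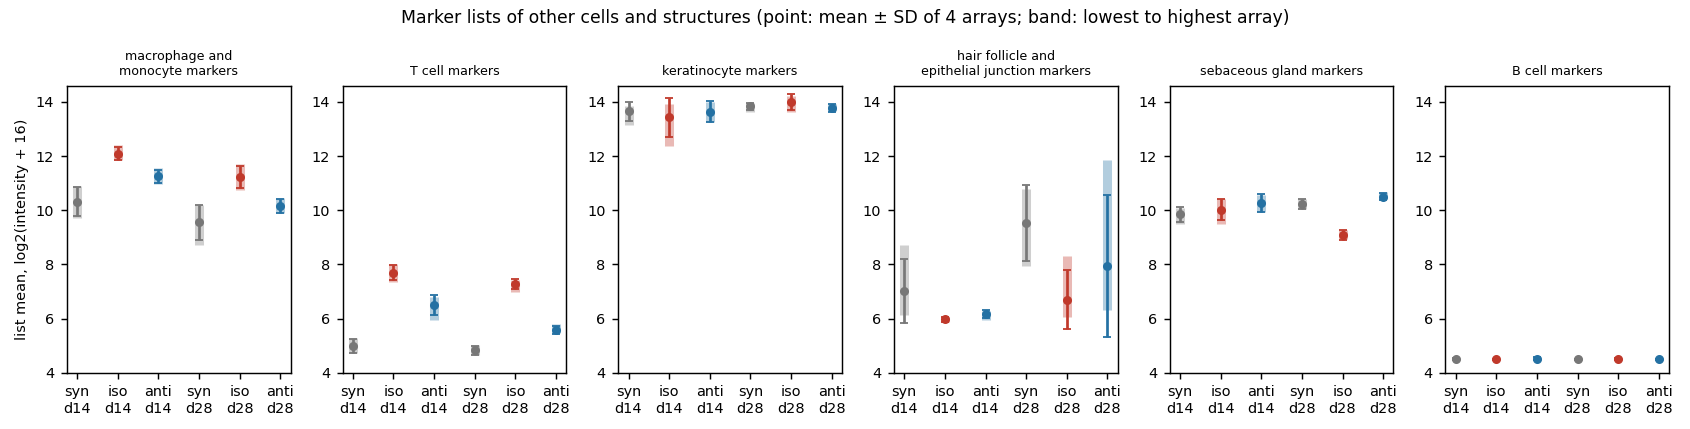
Mean log2(intensity + 16) of the marker lists of other cells and structures by group and day. Points are means ± SD of 4 arrays and bands run from the lowest to the highest array. In isotype skin at day 28 the sebaceous mean is the lowest of the 6 groups, at 9.09, whereas the T cell and macrophage means lie above both other day 28 groups.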

How the data were processed

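Values were probe set signals in intensity units, as deposited by the authors in the series table, from 24 Affymetrix mouse arrays. Per the labels, fibrous-tissue RNA was labelled with biotin; summarisation and normalization are not given in the sources used here. Intensities, from 1.68 to 92640.3, were used as log2(intensity + 16) of the deposited values without further normalization, which understates changes of dim genes: 49.7% of values lay under 16. Of 45101 probe sets, 34945 carried 1 symbol in the platform annotation, 932 several and 9160 none, and 64 were controls; 34741 symbols were updated through gene identifiers. The probe set with the highest mean stood for each of 18193 genes.

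limma 3.58.1 in R 4.3.3 fitted 6 group means to all 24 arrays (lmFit, eBayes; 18 residual degrees of freedom, prior 0.71). P-values were two-sided and Benjamini-Hochberg adjusted over all genes at 0.05; a gene past it is called. Day 28 contrasts are described by whether the 4 arrays of each group overlap. The script was tested on simulated data. The members and lists were chosen with earlier results of these data known. Of 126 other genes in 13 lists, 114 were measured. Named genes were the members, up to 4 per list among those called at day 14 or not overlapping at day 28 with the largest differences, and the 5 with the highest r per member; some defining markers are named beside them. Correlations between the deviations of same-numbered arrays were mixed (10 of 24 over 0.1, range -0.49 to 0.60). Numbers were not taken as pairs, but differently numbered arrays were not compared for reference. Promoter sequences came from RefSeq GRCm38.p6 for all 8 members. Alternatives were centred or quantile-normalized arrays, an offset of 1, dropping the dimmest genes, the mean of probe sets, a trended robust prior, a fit of the 8 arrays compared alone, a replicate block, Gapdh ratio or hair keratin covariates, and leaving out arrays.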

Additional observations from a re-analysis of the deposited data

Results flagged for a closer look

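In 48 sets of 4 arrays (8 genes in 6 groups), 3 had an array farther from its nearest neighbour than Dixon's test allows at 95% for the range of the set; chance gives about 1 in 20 such sets. Cd207 read 7.70 on array 1 of syngeneic skin at day 28, below the next array at 8.18 in a tight group, and still above all isotype arrays. Epcam read 12.77 on array 4 of the same group, above the next array at 11.85. Flt3 read 4.73 on array 3 of that group, beside 4.58 on the next, both under an intensity of 16.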

How the results depend on the processing

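At day 28 the Cd207 difference kept its sign in both isotype comparisons under every alternative run: isotype minus syngeneic ran from -4.62 to -3.30 and anti-IFNAR1 minus isotype from 3.18 to 4.69. Leaving out 1 array cannot turn this sign or make separate groups overlap, so those fits do not test either. Members without overlap were 3 to 4 and 2 to 2 in them. In anti-IFNAR1 against syngeneic skin they were 1 to 2, with 2 without syngeneic day 28 array 2. For Batf3 at day 14, anti-IFNAR1 minus isotype was -0.11 and anti-IFNAR1 minus syngeneic -0.071 without the arrays of Gapdh ratio above 4, against 0.36 and 0.54 with them.

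Counts of called genes at day 14 moved far more. In isotype against syngeneic skin 2472 genes were called. The count was 83 with only the 8 arrays compared, 1315 without the arrays of high Gapdh ratio, and 1350 to 3159 with 1 array left out, the lowest without isotype array 1. The 1 called member, Flt3, became 0 with array medians centred, with only the 8 arrays and with the replicate block. The count was also 0 without the arrays of high Gapdh ratio and without syngeneic arrays 1 and 2, and 0 to 1 with 1 array left out. With the Gapdh covariate Flt3 was lost too and Cd209a was called in its place. With the dimmest genes left out, 5 members remained and Flt3 was not among them, so that fit did not test its call.

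In anti-IFNAR1 against isotype skin 148 genes were called. The count was 247 with the dimmest genes left out, 236 with the mean of probe sets, 2 with only the 8 arrays, 67 with the Gapdh covariate and 19 without the arrays of high Gapdh ratio. Leaving out 1 array gave 32 (without anti-IFNAR1 array 2) to 625 (without isotype array 4). In anti-IFNAR1 against syngeneic skin 204 genes were called. The count was 0 with only the 8 arrays, 759 with the Gapdh covariate, 9 without the arrays of high Gapdh ratio, and 447 without syngeneic arrays 1 and 2. Leaving out 1 array gave 30 (without anti-IFNAR1 array 3) to 415 (without syngeneic array 2). Members called there were 2 with the Gapdh covariate, Cd209a and Flt3, both lower, in place of 0. With the replicate number as a block the last 2 counts of genes were 64 and 110, and the fall of Itgam in anti-IFNAR1 against isotype skin was not called. Whether the numbers pair the arrays was not settled. The causes of these shifts were not tested, except that fits of 8 arrays estimate the spread from fewer arrays. Leaving out the arrays of high Gapdh ratio or syngeneic arrays 1 and 2 was chosen after seeing the data. The number of arrays limits the precision, and Xcr1, Flt3 and Siglech cannot be judged below an intensity of 16.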
